A study of Mus musculus with 30 samples.

Results

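Pericytes and smooth muscle cells are the mural cells that wrap capillaries and larger vessels, and 9 of their marker genes were followed through the healing fracture callus of lean and diet-induced obese (DIO) mice. The genes were Acta2, Tagln, Myh11, Cnn1 and Des, which encode contractile and cytoskeletal proteins, and Rgs5, Pdgfrb, Cspg4 and Mcam, which encode signaling and surface proteins of pericytes. They were chosen by name, as 9 of the 43629 genes in the count table, and their levels in CPM were examined in all 30 libraries by diet and day. CPM are read counts brought to a common library size, here scaled by the trimmed mean of M-values (TMM). Every test is edgeR's quasi-likelihood test, with p-values adjusted over all tested genes and a threshold of 0.05.

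Callus RNA was sequenced from male C57BL/6J mice, aged 20 weeks at surgery, with an open osteotomy of the right tibia held by an intramedullary nail. Lean mice received a lean diet and were harvested on d3, d5, d7 and d10 after fracture, whereas DIO mice had received a high-fat diet from the age of 6 weeks and were harvested on the same days and on d14 and d21. Each of the 10 groups held 3 calli from 3 mice. The groups differed in diet and day and shared strain, sex and surgery. The lean course ends with d10 because later lean calli were not analysed here, and obesity and the high-fat diet cannot be told apart.

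Contractile genes such as Acta2, Tagln, Cnn1 and Myh11 are switched on by serum response factor with its myocardin-family partners, which bind CArG boxes near these genes. Pericytes are drawn to new vessels by endothelial PDGF-B acting on the receptor that Pdgfrb encodes. None of the 9 genes is restricted to mural cells: Acta2 is also made by myofibroblasts and by regenerating muscle fibers, Des by skeletal muscle, Cspg4 (the NG2 proteoglycan) by chondrocytes and Mcam (CD146) by endothelium.

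The contractile genes Acta2, Tagln and Cnn1 had their highest group means on d5 or d7 and their lowest on d21, the pericyte gene Rgs5 had its highest means on d7, and all 9 genes were lower on d21 than on d3 in DIO calli. Myh11 and Des had their highest group mean in DIO d3, Pdgfrb in lean d10, Mcam in DIO d5 and Cspg4 in DIO d7. No member passed from d3 to d5 or from d5 to d7 in either diet, where at most 1.68% of all genes passed. Between diets, Cspg4 was the only member past the threshold on any day. It was 2.32-fold higher in DIO than in lean calli on d7, and its difference between diets changed by -2.33 ± 0.52 (log2, SE) from d7 to d10.

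**Figure D1:**
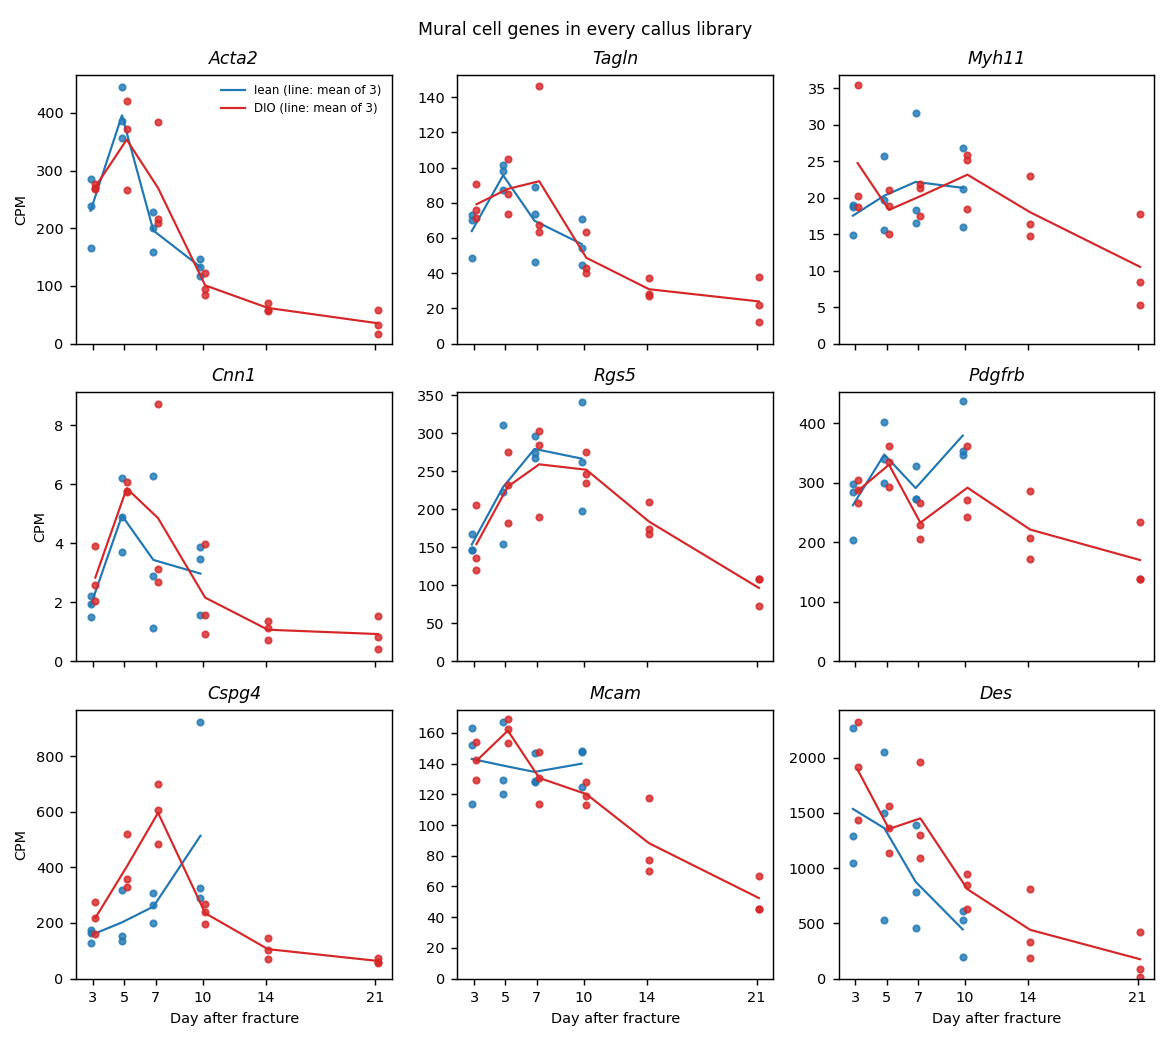
Each panel plots 1 gene, with the day after fracture on the horizontal axis and TMM-scaled CPM on the vertical axis, starting at 0. Points are the 30 libraries and lines join the means of 3 libraries in lean (blue) and DIO (red) calli. The Acta2 means are lower on each later day after d5 in both diets, Cspg4 separates on d7, and the lowest red points of 8 of the 9 genes are on d21 in replicate 1.

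The 30 libraries held 13247122 to 26365620 counts each, and the members were counted at 210 reads or more in every library, except for Myh11 (92 to 590) and Cnn1 (7 to 129). Compared per kilobase of exon, because longer genes collect more reads, the median over the 30 libraries was 266 CPM per kb for Des, 93.2 for Acta2, 52.0 for Pdgfrb, 45.7 for Rgs5, 38.5 for Mcam, 34.6 for Tagln, 19.2 for Cspg4, 2.47 for Myh11 and 0.962 for Cnn1. Myh11, the smooth muscle myosin heavy chain and the most restricted of these markers, was thus scarce beside Des and Acta2. Myocd, which encodes myocardin, was under 3 counts in every library of lean d7, lean d10 and DIO d10. Pecam1, an endothelial adhesion gene, was at group means of 128 to 176 CPM.

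Skeletal muscle genes were expressed too, although the study's methods state that soft tissue around the callus was removed. The summed level of 12 adult muscle genes ran from 561 CPM in DIO d21 replicate 1 to 37365 CPM in a DIO d10 library, and none of the 12 was under 3 counts throughout any group. DIO d21 replicate 1 also had the lowest value of all 30 libraries for Acta2, Tagln, Myh11, Cnn1, Rgs5, Cspg4, Mcam and Des. Lean d10 replicate 1 stood apart by its correlation with its group mates (mean Pearson r of log2 CPM 0.930, against a median of 0.969 over all libraries). Its 12 chondrocyte genes summed to 91745 CPM, against 21200 and 22451 in the other lean d10 calli, and its adult muscle genes to 1472 CPM. Values without these libraries are given where leaving them out ended a call. It added a call for Rgs5 among lean days (adjusted p = 0.0438 without lean d10 replicate 1, 0.0702 with it) and for Tagln between DIO d10 and d7 (log2 -0.92, adjusted p = 0.0456 without DIO d21 replicate 1, and -0.93, 0.0859 with it). In bulk tissue, fewer cells of a type and less RNA per cell cannot be told apart.

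Acta2 (chr19:34241090-34255590, minus strand) encodes smooth muscle actin. In lean calli it was at 286, 166 and 239 CPM on d3, 445, 386 and 357 CPM on d5, 200.4, 228 and 159 CPM on d7, and 133, 118 and 147 CPM on d10. In DIO calli it was at 269, 269 and 277 CPM on d3, 267, 373 and 421 CPM on d5, 209, 384 and 216 CPM on d7, 95.3, 123 and 84.6 CPM on d10, 57.2, 57.8 and 70.2 CPM on d14, and 15.97, 57.8 and 31.7 CPM on d21. All lean d5 libraries lay above all lean libraries of the other days, and the DIO libraries of d10 lay below all those of d3 to d7. Ordered by mean, the 10 groups ran from lean d5 (396 ± 45.1 CPM, SD, n = 3) to DIO d21 (35.2 ± 21.1). In 7 of the 9 neighboring pairs of that order the libraries overlapped. The gaps lay between lean d7 and lean d10 and between DIO d10 and DIO d14.

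Among lean days, Acta2 differed (adjusted p = 0.00318), and it was lower on d10 than on d3 by -0.78 ± 0.21 (log2, SE, adjusted p = 0.0159). That call was lost without lean d3 replicate 1 (log2 -0.59, adjusted p = 0.0701). In DIO calli Acta2 fell from d7 to d10 by 1.43 ± 0.33 on the log2 scale (adjusted p = 0.00811), and on d21 it was 7.59-fold lower than on d3 (adjusted p = 7.26e-06). The first of these was just lost without DIO d7 replicate 2, the highest d7 callus (log2 -1.09, adjusted p = 0.0514), and the second held without DIO d21 replicate 1 (log2 -2.60). No diet difference in Acta2 passed on any day.

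Tagln (chr9:45929619-45936058, minus strand) encodes transgelin, an actin-bundling protein of smooth muscle. Its level in lean calli was 70.3, 48.6 and 72.9 CPM on d3, 102, 97.9 and 87.3 CPM on d5, 89.2, 73.7 and 46.5 CPM on d7, and 54.1, 44.9 and 70.8 CPM on d10. Its level in DIO calli was 90.8, 75.7 and 71.1 CPM on d3, 73.5, 85.0 and 105 CPM on d5, 67.4, 146 and 63.3 CPM on d7, 43.1, 63.2 and 40.0 CPM on d10, 28.1, 37.4 and 27.2 CPM on d14, and 12.1, 37.6 and 22.1 CPM on d21. The high DIO d7 library was replicate 2, the same callus that was highest for Acta2 and Cnn1 on that day, and the d14 and d21 libraries lay below all of d3 to d10. Tagln was 3.25-fold lower on d21 than on d3 in DIO calli (adjusted p = 0.000863), while its lean values gave log2 -0.16 for d10 against d3 (adjusted p = 0.652). Exons of Pcsk7 and Gm48529 overlap those of Tagln on the opposite strand. The kit marks strand, but the strand option of the counting is not given in the sources used here, so reads of these overlaps may not all be from Tagln.

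Cnn1 (chr9:22099216-22109630, plus strand) encodes calponin 1, which binds actin and restrains smooth muscle contraction. It ranged from 1.13 to 6.27 CPM in lean and from 0.40 to 8.71 CPM in DIO calli, and its highest group mean was in DIO d5 (5.86 ± 0.17 CPM, SD, n = 3) and its lowest in DIO d21 (0.92 ± 0.57). Lean and DIO d5 libraries were all above those of d3 in the same diet, but neither step passed (adjusted p = 0.237 and 0.388). On d21 it was 2.99-fold lower than on d3 in DIO calli (adjusted p = 0.0295). This call was lost without DIO d3 replicate 1 (adjusted p = 0.103), DIO d21 replicate 1 (0.116) or DIO d21 replicate 2 (0.0672), and without DIO d21 replicate 3 the log2 difference moved from -1.58 to -2.21 (adjusted p = 0.0134).

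Myh11 (chr16:14194535-14291372, minus strand) ranged from 14.9 to 31.7 CPM in lean calli and from 5.31 to 35.4 CPM in DIO calli. Its groups overlapped along the whole order from DIO d3 (24.7 ± 9.24 CPM, SD, n = 3) to DIO d21 (10.5 ± 6.47 CPM). On d21 it was at 5.31, 17.8 and 8.47 CPM, 2.32-fold lower than on d3 (adjusted p = 0.00826), a call lost without DIO d3 replicate 1 (adjusted p = 0.0523). Without DIO d21 replicate 2 this log2 difference moved from -1.21 to -1.84 (adjusted p = 0.000162). Myh11 was the 1 member with no difference past the threshold among DIO days as a whole (adjusted p = 0.0681), and it stood near the threshold there: without DIO d21 replicate 2 the adjusted p was 0.00200. It also passed without DIO d3 replicate 3 (0.0489) or DIO d14 replicate 2 (0.0464). Some other settings passed too: DESeq2 (0.0229), upper-quartile factors (0.0420) and all genes of at least 1 count (0.0176). So did the replicate number as a block (0.0454) and all 30 libraries in 1 fit (0.0448).

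Over the 30 libraries, log2 CPM of Acta2 had Pearson r = 0.95 with Tagln (Spearman rho = 0.93) and 0.80 with Cnn1 (rho = 0.74), and Tagln had r = 0.87 with Cnn1 (rho = 0.85). Without the 2 libraries farthest from the median of the first gene these values were 0.92, 0.78 and 0.88, and after each group's mean was subtracted they were 0.88, 0.51 and 0.72. Myh11 had r = 0.58 with Acta2 (rho = 0.31) and 0.80 with Des (rho = 0.58). The first fell to 0.12 without the 2 libraries farthest for Acta2, and the second to 0.47 without the 2 farthest for Myh11. Both values over all libraries thus rested in large part on the libraries left out. After each group's mean was subtracted they were 0.64 and 0.87. These correlations describe 30 libraries that share days and diets and are given without a p-value.

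**Figure D2:**
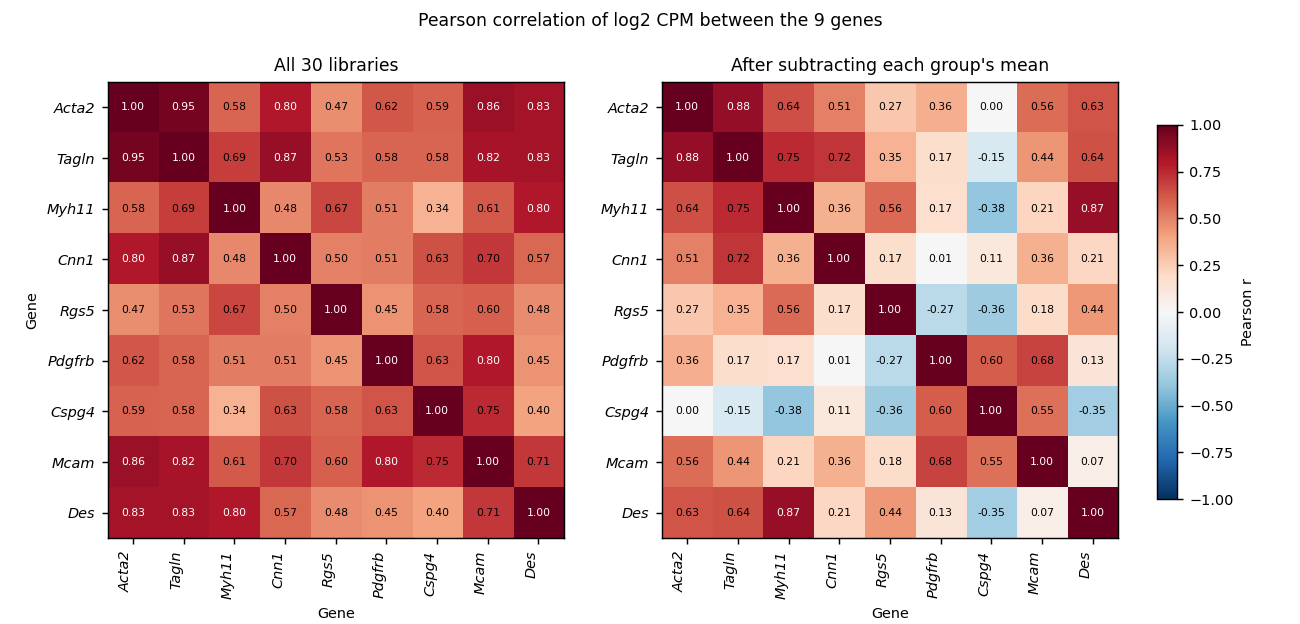
Both panels show the 9 genes on both axes, with color and number giving Pearson r of log2 CPM. The left panel uses all 30 libraries and the right panel the same values after subtracting the mean of each group of 3. Acta2 and Tagln stay together in both (0.95 and 0.88), whereas Cspg4 and Des go from 0.40 to -0.35.

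The sequences upstream of the starts of Acta2 and Cnn1 are shown because these genes moved together and CArG boxes are the known switch of this gene class. In the RefSeq promoters (GRCm38.p6) 6 of the 9 genes were matched, and Tagln, Myh11 and Pdgfrb were not. In the 250 bases before the start, none of the 6 had a perfect CArG box, which 1.47% of all 32851 promoters had. With at most 1 departure from it allowed, on either strand, Acta2 had 2 matches, at -84 to -75 and -34 to -25, and Cspg4 had 2 overlapping matches, at -238 to -229 and -237 to -228. Of all promoters 18.6% had such a match, so a match is common and describes letters only. Capitals mark these matches. The Acta2 stretches are on the minus strand of chr19:34255438-34255467 and chr19:34255388-34255417 and lie within the first exon of the longer GENCODE M21 gene. The Cnn1 stretch (chr9:22099003-22099215, plus strand) had none.
Acta2, -94 to -65: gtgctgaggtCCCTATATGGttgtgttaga
Acta2, -44 to -15: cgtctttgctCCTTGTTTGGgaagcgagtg
Cnn1, -250 to -38: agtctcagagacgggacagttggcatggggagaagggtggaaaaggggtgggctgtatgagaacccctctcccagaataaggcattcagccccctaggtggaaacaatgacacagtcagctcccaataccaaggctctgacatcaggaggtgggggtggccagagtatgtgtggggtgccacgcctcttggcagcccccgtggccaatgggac

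Des (chr1:75360329-75368579, plus strand) encodes desmin, the intermediate filament of smooth, skeletal and cardiac muscle. Lean calli gave 2272, 1049.9 and 1288 CPM on d3, 2053, 1504 and 531 CPM on d5, 1387, 782 and 460.3 CPM on d7, and 194, 612 and 530.4 CPM on d10. DIO calli gave 2322, 1439 and 1918 CPM on d3, 1133, 1568 and 1365 CPM on d5, 1964, 1092 and 1299 CPM on d7, 845, 949 and 634 CPM on d10, 331, 809.8 and 182 CPM on d14, and 14.2, 422 and 89.3 CPM on d21. The d10 libraries lay below those of d3 in both diets, and the libraries of d21 spread over the widest range of any group relative to their mean. Des was 3.41-fold lower on d10 than on d3 in lean calli (adjusted p = 0.0361) and 10.6-fold lower on d21 than on d3 in DIO calli (adjusted p = 0.0019).

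The lean call was lost without lean d3 replicate 1 (adjusted p = 0.13), lean d3 replicate 3 (0.0504), lean d10 replicate 1 (0.0941) or lean d10 replicate 3 (0.0586). The DIO call held without DIO d21 replicate 1 (log2 -2.89, adjusted p = 0.00165), and without DIO d21 replicate 2, the highest d21 callus, the log2 difference moved from -3.41 to -5.19 (adjusted p = 3.37e-05). Ckm, the muscle creatine kinase, was at 71.1, 2730 and 392 CPM in the same 3 DIO d21 calli, and at 156, 2750.3 and 1695 CPM in lean d10. In both groups the callus lowest for Des was also the lowest for Ckm. After each group's mean was subtracted, Des had r = 0.93 with the mean log2 CPM of the 12 adult muscle genes, and r = 0.77 before (rho = 0.42, and r = 0.51 without the 2 libraries farthest from the median of the muscle genes). With the 17 other smooth muscle contractile and regulatory genes Des had r = 0.95 (rho = 0.89). This was 0.88 without the 2 libraries farthest from the median of those genes, and 0.95 within groups. That list includes Tpm2, a tropomyosin shared by skeletal and smooth muscle, at a mean of 1078 CPM over the 30 libraries. DIO d10 had the highest median summed level of both lists (5708 CPM for the smooth muscle list and 29997.5 CPM for the adult muscle list). The lists are therefore not separate measures of smooth and skeletal muscle. The part of muscle RNA in the Des differences was not tested.

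The Des promoter is shown because E-boxes, the sites of myogenic factors, mark many muscle genes. Capitals mark CANNTG, which was found at -220 to -215 and -36 to -31 here and in 66.2% of all promoters of this length. The stretch is chr1:75360042-75360291 on the plus strand.
Des, -250 to -1: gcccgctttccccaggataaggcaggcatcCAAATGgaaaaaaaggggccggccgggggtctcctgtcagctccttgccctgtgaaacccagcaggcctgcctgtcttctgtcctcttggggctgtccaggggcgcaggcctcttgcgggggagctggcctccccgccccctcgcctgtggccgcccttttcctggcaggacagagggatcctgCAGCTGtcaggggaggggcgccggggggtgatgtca

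Rgs5 (chr1:169655501-169695813, plus strand), a regulator of G-protein signaling and a classic pericyte marker, was higher on d10 than on d3 in lean calli and lowest on d21 in DIO calli. In the lean course it was at 147, 146 and 168 CPM on d3, 311, 154 and 223 CPM on d5, 274, 268 and 297 CPM on d7, and 197, 262 and 341 CPM on d10. In the DIO course it was at 206, 119.6 and 136 CPM on d3, 232, 275 and 182 CPM on d5, 303, 284 and 189.6 CPM on d7, 234, 246 and 275 CPM on d10, 167, 210.0 and 174 CPM on d14, and 72.3, 108 and 109 CPM on d21. All lean d7 and d10 libraries were above all lean d3 libraries, and all DIO d21 libraries were below those of every other group. Rgs5 was 1.76-fold higher on d10 than on d3 in lean calli (adjusted p = 0.0259), a call lost without lean d3 replicate 1 or 2 or lean d10 replicate 2 or 3 (adjusted p from 0.0546 to 0.0947). In DIO calli it fell by 0.92 ± 0.23 on the log2 scale from d14 to d21 (adjusted p = 0.0123) and on d21 was 1.57-fold lower than on d3 (adjusted p = 0.0285). Without DIO d21 replicate 1 these became log2 -0.75 (adjusted p = 0.0701) and -0.51 (0.118), and without DIO d3 replicate 1 the second became -0.41 (0.171).

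Pdgfrb (chr18:61045150-61085061, plus strand) encodes the beta receptor for platelet-derived growth factor. Its values in lean calli were 284, 204 and 298 CPM on d3, 300.0, 339.7 and 403 CPM on d5, 327, 273 and 273 CPM on d7, and 438, 354 and 347 CPM on d10. Its values in DIO calli were 266, 305 and 287 CPM on d3, 363, 293 and 336 CPM on d5, 228, 205 and 265 CPM on d7, 362, 270.4 and 242 CPM on d10, 207, 171 and 286 CPM on d14, and 138, 234 and 138 CPM on d21. All neighboring groups overlapped in the order from lean d10 (379 ± 50.5 CPM, SD, n = 3) to DIO d21 (170 ± 55.7). Pdgfrb was 1.47-fold higher on d10 than on d3 in lean calli (adjusted p = 0.0391) and 1.66-fold lower on d21 than on d3 in DIO calli (adjusted p = 0.0134).

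The lean call for Pdgfrb was lost without any 1 of 6 libraries (lean d3 replicates 1 and 2, d5 replicate 2, d7 replicate 2, d10 replicates 1 and 2, adjusted p from 0.0531 to 0.149). The DIO call was lost without DIO d21 replicate 1 (adjusted p = 0.0578) or replicate 3 (0.0551). Of the genes around this receptor, Pdgfb, which encodes its endothelial ligand, fell between d14 and d21 in DIO calli from 70.4 ± 18.3 to 38.8 ± 13.1 CPM (SD, n = 3, adjusted p = 0.0274). Pdgfb on d21 was also below its d3 level of 81.8 ± 7.47 CPM (adjusted p = 0.00272). Pdgfd, which encodes a further ligand of this receptor, went the opposite way between d3 and d21, from 9.46 ± 2.23 to 20.2 ± 2.78 CPM (adjusted p = 0.00139). It did not rise steadily in DIO calli, with 9.63 ± 2.80 CPM on d7 and 28.7 ± 7.33 CPM on d10. In lean calli Pdgfd was also higher on d10 than on d3 (25.3 ± 9.03 against 11.6 ± 2.48 CPM, adjusted p = 0.0163).

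Mcam (chr9:44134469-44142727, plus strand) encodes CD146, an adhesion molecule of pericytes and endothelium. Its lean calli stayed between 113 and 167 CPM on all 4 days, with a log2 difference of -0.01 between d10 and d3. DIO calli held 142, 129 and 154 CPM on d3, 169, 153 and 162 CPM on d5, 130.4, 148 and 114 CPM on d7, 113, 128 and 119 CPM on d10, 77.1, 69.8 and 118 CPM on d14, and 45.0, 66.8 and 45.5 CPM on d21. All d21 libraries were below all others. Mcam was 1.66-fold lower on d21 than on d14 (adjusted p = 0.0124) and 2.66-fold lower on d21 than on d3 (adjusted p = 1.76e-05). The first call was lost without DIO d14 replicate 3 (adjusted p = 0.0868) or DIO d21 replicate 1 (0.0702), and the second held without the latter (log2 -1.34). Pecam1 was at 116, 146 and 121 CPM in the same DIO d21 calli, against 194, 140 and 174 CPM on d3.

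Cspg4 (chr9:56865033-56899870, plus strand) encodes the NG2 proteoglycan, and it alone of the 9 passed a test between diets. Lean calli held 175, 127 and 164 CPM on d3, 135, 153 and 318 CPM on d5, 266, 201 and 309 CPM on d7, and 924, 291 and 325 CPM on d10. For DIO calli the values were 161, 218 and 274 CPM on d3, 521, 329 and 357 CPM on d5, 606, 483 and 699 CPM on d7, 196, 269 and 241 CPM on d10, 101, 69.4 and 147 CPM on d14, and 56.6, 74.2 and 59.1 CPM on d21. Each DIO library of d5 and d7 was above each lean library of the same day, and each DIO library of d10 was below each lean library of d10, so the order of the diets turned over between d7 and d10.

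On d7 the difference between diets was 1.21 ± 0.23 (log2, DIO minus lean, SE, adjusted p = 0.0289). It lost its call without lean d7 replicate 1 (adjusted p = 0.107), lean d7 replicate 2 (0.159) or DIO d7 replicate 1 (0.0684). The d5 difference of 0.99 (adjusted p = 0.168) and the d10 difference of -1.12 (adjusted p = 0.686) did not pass. In the fit of both diets over d3 to d10, the change of the difference from d7 to d10 was -2.33 ± 0.52 (adjusted p = 0.0131). The high lean d10 callus, replicate 1, weighed on this value: without it the change was -1.59 and just missed the threshold (adjusted p = 0.0508).

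Within diets, Cspg4 was 3.34-fold higher on d10 than on d3 in lean calli (adjusted p = 0.0122), and without lean d10 replicate 1 the log2 difference fell from 1.74 to 1.01 (adjusted p = 0.0409). That lean call was lost without lean d3 replicate 2 (adjusted p = 0.055). In DIO calli it fell from d7 to d10 by 1.36 ± 0.26 on the log2 scale (adjusted p = 0.00198) and from d10 to d14 by 1.15 ± 0.26 (adjusted p = 0.0483). The second step stood at the threshold and was lost without any 1 of 9 DIO libraries of 6 days (adjusted p from 0.0567 to 0.227, the highest without d14 replicate 2). On d21 it was 3.37-fold lower than on d3 (adjusted p = 5.16e-05).

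Cartilage genes moved with Cspg4. Over the 30 libraries it had r = 0.89 with the mean log2 CPM of 12 chondrocyte genes (rho = 0.90, and r = 0.86 without the 2 libraries farthest from the median of these genes), and r = 0.86 after each group's mean was subtracted. With the 14 other pericyte genes it had r = 0.64 (rho = 0.56, and r = 0.47 without the 2 farthest libraries), and -0.05 within groups. The 12 fibroblast and myofibroblast genes came near the chondrocyte genes over the 30 libraries, with r = 0.86 (rho = 0.88). Without the 2 farthest libraries their r with Cspg4 was 0.82, and within groups it was 0.50. All 12 chondrocyte genes were tested, and 12 were higher on d10 than on d3 in lean calli, where 29.3% of all genes passed. In DIO calli 10 were lower on d10 than on d7 (13% of all genes passed). On d7, 3 were higher in DIO (2.32%), and 9 fell relative to lean between d7 and d10 (5.07%). The summed level of the 12 chondrocyte genes was 8111 to 22704 CPM in lean d7, 23672 to 50125 CPM in DIO d7, 21200 to 91745 CPM in lean d10 and 6476 to 12344 CPM in DIO d10. The part of chondrocyte RNA in the Cspg4 differences was not tested.

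**Figure D3:**
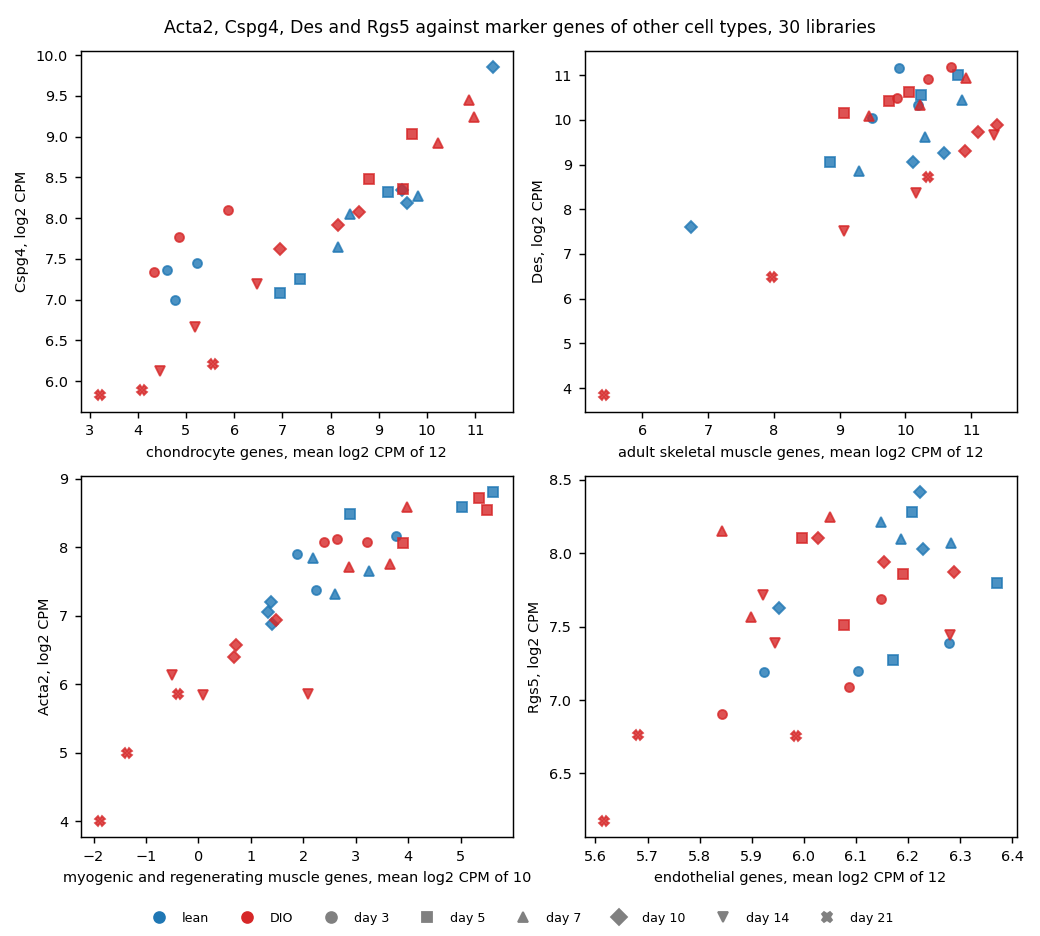
Each panel plots log2 CPM of 1 member (vertical axis) against the mean log2 CPM of a marker list (horizontal axis) in the 30 libraries, colored by diet and shaped by day. Cspg4 follows the 12 chondrocyte genes (r = 0.89), Des the 12 adult skeletal muscle genes (r = 0.77) with 1 DIO d21 and 1 lean d10 callus far to the left, Acta2 the 10 myogenic genes (r = 0.91), and Rgs5 the 12 endothelial genes less closely (r = 0.56).

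The Cspg4 stretch below covers chr9:56864854-56865032 on the plus strand, with the overlapping CArG-like matches in capitals. It is shown for the gene with the diet difference.
Cspg4, -250 to -72: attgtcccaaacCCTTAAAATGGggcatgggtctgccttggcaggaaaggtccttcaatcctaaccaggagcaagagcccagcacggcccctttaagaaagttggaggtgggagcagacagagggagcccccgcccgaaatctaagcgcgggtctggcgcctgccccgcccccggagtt

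Other lists moved with other members. Acta2 had r = 0.91 with 10 myogenic and regenerating muscle genes (rho = 0.91, and r = 0.88 without the 2 farthest libraries) and 0.46 within groups. The summed level of those genes was highest on d5, at 163 to 1374 CPM in lean and 282 to 1387 CPM in DIO calli, against 33.7 to 53.8 CPM in DIO d21, where Mymx was under 3 counts in every library. With the 17 other smooth muscle contractile and regulatory genes Acta2 had r = 0.87 (rho = 0.82, r = 0.77 without the 2 farthest libraries). Within groups it was 0.72, against 0.46 for the myogenic list, 0.52 for the fibroblast and myofibroblast genes and 0.49 for the adult muscle genes. The list of 17 includes Tpm2, which skeletal muscle also makes. Mcam had r = 0.89 with 12 fibroblast and myofibroblast genes (rho = 0.75, r = 0.77 without the 2 farthest libraries and 0.83 within groups), of which Pdpn was under 3 counts in every library. Rgs5 had r = 0.80 with the 14 other pericyte genes (rho = 0.73, and r = 0.67 without the 2 farthest) and 0.56 with 12 endothelial genes (rho = 0.41), which fell to 0.31 without the 2 farthest. With the fibroblast and myofibroblast genes Rgs5 had r = 0.73 and with the chondrocyte genes 0.71, but 0.15 and -0.11 within groups. Its r within groups was 0.47 with the pericyte genes, 0.49 with the adult muscle genes and 0.32 with the endothelial genes. These list choices were made among 10 lists with the values known, and what the other cell types contributed to Acta2, Mcam and Rgs5 was not tested.

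Counted over all comparisons, the members passed as follows, with the share of all tested genes that passed beside each count. Among lean days 2 of 9 passed (19% of 16471 genes), of which Cspg4 (adjusted p = 0.0413) was lost without any 1 of 9 of the 12 libraries (adjusted p up to 0.135, without lean d10 replicate 1). Between d10 and d3 there were 3 higher and 2 lower (29.3%). The median log2 fold change was 0.30 for the members and 0.02 for all genes. None of the 9 passed from d3 to d5 (0.449%), from d5 to d7 (0% of genes, with 926 at an unadjusted p under 0.05 and 37 by DESeq2) or from d7 to d10 (2.73%) in lean calli. The unadjusted p was under 0.05 for 5, 1 and 2 members in these 3 steps.

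Among DIO days 8 of 9 passed (59.1% of 16995 genes), with Pdgfrb lost without DIO d21 replicate 3 (adjusted p = 0.05003). None passed from d3 to d5 (1.68%) or d5 to d7 (0.0177%), where 2 members each had an unadjusted p under 0.05. The members past the threshold were 2 from d7 to d10 (13%), 1 from d10 to d14 (0.759%) and 2 from d14 to d21 (19.6%), all lower on the later day. On d21 all 9 were lower than on d3, where 45.3% of genes passed in either direction, and the median log2 fold change was -1.58 against 0.03 over all genes. Without DIO d21 replicate 1, 6 of 9 passed. Over all genes, 6072 to 8025 passed in this comparison with any 1 of the DIO libraries left out. Genes of other cell types moved in this comparison too, with those past the threshold in parentheses. The median log2 fold change was -1.42 for fibroblast and myofibroblast genes (6 lower, 2 higher) and -5.28 for myogenic genes (8 lower, 1 higher). For adult muscle genes it was -1.22 (2 lower, 0 higher), and for chondrocyte genes -0.23 (4 lower, 2 higher). Osteoblast genes had 0.60 (4 lower, 5 higher) and leukocyte genes 0.90 (0 lower, 7 higher).

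Between diets none of the 9 passed on d3 (0% of 15772 genes, with 2374 at an unadjusted p under 0.05 and 728 by DESeq2), d5 (1.08%) or d10 (0%, with 1082 and 47), and 1 passed on d7 (2.32%). On each of these 4 days 1 member had an unadjusted p under 0.05. A change of the diet difference over d3 to d10 passed for Cspg4 alone (adjusted p = 0.049, 1.65% of 17057 genes), and likewise the change from d7 to d10 (5.07%). The first of these sat at the threshold and was lost without any 1 of 21 of the 24 libraries (adjusted p from 0.0506 to 0.175, the highest without lean d10 replicate 1). Comparisons in adjacent days and diets share libraries, so their counts are not independent.

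**Figure D4:**
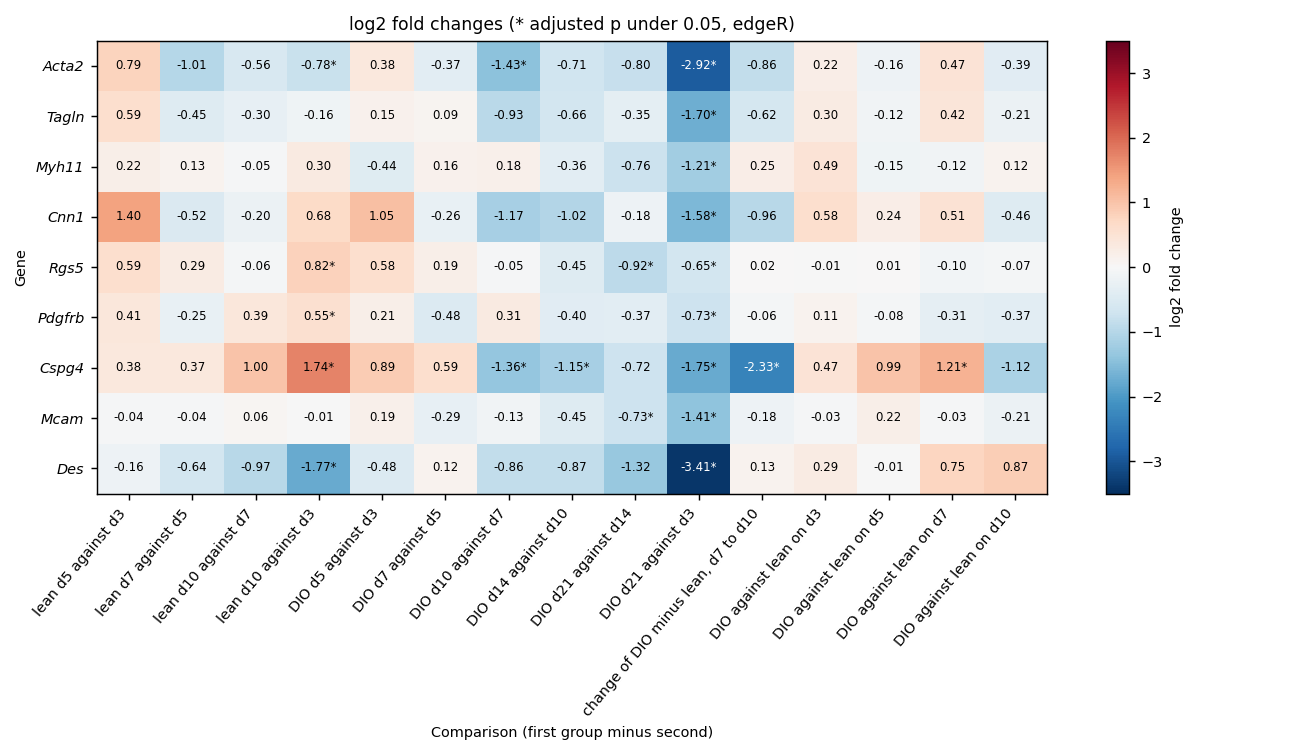
Rows are the 9 genes and columns the comparisons, with color and number giving the log2 fold change of the first group over the second and an asterisk marking adjusted p under 0.05. The column of DIO d21 against d3 is marked in all 9 rows, and Cspg4 holds the 2 marks that involve a diet difference.

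The wider sets of smooth muscle and pericyte genes are given beside the members. Their single genes were not refitted with libraries left out. Of 17 other smooth muscle contractile and regulatory genes 16 were tested, and 11 of them were lower on d21 than on d3 in DIO calli, none higher (median log2 fold change -1.19), where 45.3% of all tested genes passed in either direction. The smallest adjusted p was that of Smtn, which encodes smoothelin (49.3 ± 21.9 against 178 ± 16.02 CPM, SD, n = 3, adjusted p = 2.73e-05), followed by Lmod1, a thin-filament nucleator (0.93 ± 0.51 against 4.98 ± 1.61 CPM, adjusted p = 0.000297), and Srf, the serum response factor itself (50.9 ± 10.8 against 93.1 ± 1.99 CPM, adjusted p = 0.000495). In lean calli 2 passed between d10 and d3 (29.3% of all genes), both lower: Srf (62.5 ± 6.01 against 80.6 ± 7.00 CPM, adjusted p = 0.0434) and Mrtfa, a myocardin-related cofactor (54.3 ± 9.13 against 90.5 ± 8.71 CPM, adjusted p = 0.00576). From d14 to d21 Mrtfa was the 1 gene of this list that rose in DIO calli (47.2 ± 2.85 to 68.8 ± 5.82 CPM, adjusted p = 0.0212), while 3 fell, Myl9 (a myosin light chain) and Itga8 (an integrin) among them.

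Of 14 other pericyte genes, all tested, 8 were lower and 2 higher on d21 than on d3 in DIO calli (median log2 fold change -0.97, and 45.3% of all genes passed). Ndufa4l2, a mitochondrial protein induced in hypoxia, was at 8.83 ± 4.46 against 62.3 ± 27.2 CPM (adjusted p = 2.43e-05), Gja4, a vascular gap junction gene, at 5.91 ± 2.49 against 19.8 ± 3.98 CPM (adjusted p = 4.53e-05), and Ednra, an endothelin receptor, at 10.6 ± 1.95 against 19.8 ± 0.74 CPM (adjusted p = 0.000221). In lean calli 4 were higher on d10 than on d3 and none lower, where 29.3% of all genes passed, among them Higd1b (4.26 ± 0.61 against 1.85 ± 0.26 CPM, adjusted p = 0.0148), Foxs1, a forkhead factor (36.8 ± 23.6 against 12.9 ± 3.37 CPM, adjusted p = 0.0125) and Cox4i2, a cytochrome oxidase subunit (46.0 ± 30.2 against 8.36 ± 1.27 CPM, adjusted p = 0.00327). On d7 2 of the 14 passed between diets (2.32% of all genes), Cox4i2 (43.9 ± 11.8 CPM in DIO against 14.3 ± 2.12 in lean, adjusted p = 0.0154) and Ndufa4l2 (88.3 ± 35.0 against 29.5 ± 8.75 CPM, adjusted p = 0.0323), while the median log2 difference of the 14 was -0.33 (DIO minus lean). From d7 to d10 in DIO calli the list split: Gucy1a1, a subunit of the nitric oxide receptor (16.4 ± 5.65 to 42.0 ± 2.95 CPM, adjusted p = 0.00165), and Abcc9, a potassium channel subunit (25.3 ± 8.37 to 46.8 ± 12.8 CPM, adjusted p = 0.0156), rose, while Ndufa4l2 fell (88.3 ± 35.0 to 19.5 ± 3.23 CPM, adjusted p = 0.000768).

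Among the 12 endothelial genes, 1 was higher and 6 were lower on d21 than on d3 in DIO calli (median log2 fold change -0.44, with 45.3% of all genes past the threshold), and their summed level was 652 to 876 CPM on d21 against 905 to 1122 CPM on d3. In lean calli 2 were higher and 1 lower between d10 and d3 (29.3% of all genes), and no endothelial gene passed between diets on any day.

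The genes most like Rgs5 over the 30 libraries, ranked by Pearson r of log2 CPM among 14731 genes with a mean of 1 CPM or more, were Sparcl1 (0.91), Olfr558 (0.90), Ecm2 (0.88), Dkk2 (0.86) and Apod (0.85), and without the 3 libraries of DIO d21 these values were 0.88, 0.85, 0.81, 0.78 and 0.74. Those most like Myh11 were Egflam (0.91), Tpm2 (0.89), Jph2 (0.89), Synm (0.88) and Actn3 (0.87). Without DIO d21 these fell to 0.76, 0.70, 0.71, 0.65 and 0.69, so their likeness rested in part on the lowest group. Actn3 is a fast skeletal muscle actinin, Tpm2 a tropomyosin shared by skeletal and smooth muscle, and Myh11 had r = 0.82 with the 12 adult muscle genes (rho = 0.73). With the 17 other smooth muscle genes Myh11 had r = 0.85 (rho = 0.61). Within groups r was 0.88 with the smooth muscle genes and 0.82 with the adult muscle genes. Without the 2 farthest libraries of each list r was 0.55 and 0.78.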

How the data were processed

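Poly(A) RNA of 30 calli was sequenced as paired reads from stranded libraries. Per the study's methods and the submitters' processing notes, the authors used bcl2fastq, BBDuk, HISAT2 2.1.0 on GRCm38 and HTSeq, and deposited raw read counts per gene without normalization. The HTSeq version, strand option and annotation are not given in the sources used here. Of 43629 genes, 27445 had at least 1 count and 42548 matched GENCODE M21 by identifier, which gave symbols, positions and exon lengths.

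Computed here were TMM-scaled CPM and log2 CPM (prior count 2), and two-sided quasi-likelihood F-tests in edgeR 4.0.16 (R 4.3.3) after filterByExpr, with Benjamini-Hochberg adjustment over all tested genes and a threshold of 0.05. Lean days were fitted over 12 libraries, DIO days over 18, diets within a day over 6, and diet by day over the 24 libraries of d3 to d10. The authors used DESeq2, which is an alternative here (1.42.0). The fits were tested on simulated data.

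Members and gene lists were chosen with earlier results of these data known. The 9 members were named in every comparison, and from other lists at most 3 genes past the threshold with the smallest adjusted p, plus the 5 genes most like Rgs5 and Myh11. The libraries came from separate mice. The 30 pairs within groups differed beyond counting noise (chi-square per degree of freedom of 13.6 or more), so all libraries were kept. Depth sets counting error, which is largest for Cnn1 and Myh11. Blastn of the members' transcripts found stretches of 100 bases or more at 95% identity only to the antisense neighbors of Tagln and Des. The part of Des shared with Gm15179, on the opposite strand, was 220 exon bases. Positions are GRCm38.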

Additional observations from a re-analysis of the deposited data

Results flagged for a closer look

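For 1 member the difference between diets itself changed with the day. The DIO minus lean difference of Cspg4 changed by -2.33 ± 0.52 (log2, SE) from d7 to d10 (edgeR adjusted p = 0.0131), and the test over d3 to d10 gave an adjusted p of 0.049. Without lean d10 replicate 1 the change was -1.59 (adjusted p = 0.0508), and the test over d3 to d10 was lost without any 1 of 21 of the 24 libraries and with the replicate number as a block (adjusted p = 0.0606). In the pericyte list, Ndufa4l2 changed by -3.18 ± 0.58 (adjusted p = 0.00487) and Cox4i2 by -2.75 ± 0.56 (adjusted p = 0.00773), with adjusted p-values of 0.0281 and 0.0451 over d3 to d10, while the median change over the 14 genes of that list was 0.33 (log2). In the smooth muscle list, Smtn changed by -1.08 ± 0.32 (adjusted p = 0.0499) and Mylk, the myosin light chain kinase, by 1.29 ± 0.35 (adjusted p = 0.035). Ndufa4l2, Cox4i2, Smtn and Mylk were not refitted with libraries left out, so their dependence on lean d10 replicate 1 is not known. Groups of 3 are too small for the check of single outlying libraries.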

How the results depend on the processing

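No called member reversed under any alternative. For the 21 log2 fold changes past the threshold, 120 of 126 values from other tools, scalings, filters and fits stayed past it and 6 did not. Of 342 values with 1 library left out 301 stayed past it and 41 did not. Among the 114 not past the threshold, 33 changed sign under some alternative, the largest of these at 0.51 (log2) before. By DESeq2 the number of members past the threshold was 4 among lean days, and 1 each for lean d5 against d3, lean d7 against d5, DIO d5 against d3 and the diets on d5. It was 1 for DIO d5 against d3 with all genes of at least 1 count. With all 30 libraries in 1 fit it was 3 for lean d10 against d3 and 0 for DIO d14 against d10 and for the diets on d7. With the replicate number as a block (replicate block) it was 0 for DIO d14 against d10 and 0 for any change of the diet difference, where Cspg4 gave adjusted p = 0.0626 and 0.0606, and it stayed within 1.5 times in the other comparisons. The numbers label different mice. Deviations of same-numbered libraries had r from -0.53 to 0.43, all 3 above 0.1 in 1 of 14 comparisons (lean d7 against d5, 0 members either way), and every library was closest to its own number in 2 of 14. The causes of these changes were not tested.

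With 1 library left out, the members past the threshold numbered 1 to 2 among lean days, 1 to 5 for lean d10 against d3, 7 to 9 among DIO days, 1 to 3 for DIO d10 against d7, 0 to 2 for d14 against d10, 0 to 7 for d21 against d14, 6 to 9 for d21 against d3, 0 to 1 for the diets on d5 and on d7, 0 to 1 for any change of the diet difference and 0 to 1 for its change from d7 to d10. It was 0 to 0 in the other 7. The 7 for d21 against d14 came without DIO d21 replicate 2. Over all genes these counts also moved: 1678 to 3130 among lean days, 2863 to 5016 for lean d10 against d3 and 8899 to 10539 among DIO days. For DIO d10 against d7 they were 1510 to 2495, for d14 against d10 0 to 459 and for d21 against d14 1285 to 4070. For d21 against d3 they were 6072 to 8025, and between diets 0 to 935 on d5 and 29 to 936 on d7. Any change of the diet difference gave 0 to 602, and its change from d7 to d10 257 to 1660. Under other settings, the counts over all genes that differed by more than 1.5 times were as follows. DESeq2 gave 4847 among lean days (3132 in edgeR), 605 for lean d5 against d3 (74), 37 for d7 against d5 (0), 1827 for d10 against d7 (450), 575 for DIO d5 against d3 (285), 346 for d7 against d5 (3), 552 for d14 against d10 (129), 1151 for any change of the diet difference (282), 1496 for its change from d7 to d10 (865), and 728, 1150, 944 and 47 between diets on d3, d5, d7 and d10 (0, 170, 366 and 0). With all genes of at least 1 count there were 169 for lean d5 against d3, 478 for DIO d5 against d3, 271 for d7 against d5, 329 for d14 against d10, 503 for any change of the diet difference, and 515, 565, 724 and 29 between diets by day. The replicate block gave 199 for lean d5 against d3, 1479 for d10 against d7, 45 for DIO d14 against d10, and 325 and 0 between diets on d3 and d5. With all 30 libraries there were 202, 2 and 1529 for the lean steps, 1 and 2 for DIO d7 against d5 and d14 against d10, and 63, 675 and 3 between diets on d5, d7 and d10. Upper-quartile factors gave 1 between diets on d3. Of 90 group means, 87 moved by less than 1 SD with CPM by library totals, and the others were Acta2 and Mcam in lean d10 and Acta2 in DIO d3. Counts of at most 129 limit the precision for Cnn1.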

Other observations

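Levels of near relatives of the members were also read from the table. Cnn2, the broadly expressed calponin, was at 615.6 ± 50.7 CPM in DIO d10 and 376 ± 28.1 CPM in DIO d21 (SD, n = 3), and Cnn3 at 301 ± 36.8 CPM in DIO d5 and 99.3 ± 5.35 CPM in DIO d21. Per kilobase, Cnn2 stood at 144 to 262 CPM per kb over the 10 groups and Cnn1 at 0.33 to 2.14 CPM per kb. Tagln2, the transgelin of non-muscle cells, was at 497 ± 48.9 CPM in DIO d3 and 200 ± 25.4 CPM in DIO d21, and Tagln3 was at 2.68 CPM or less in every group mean. Actg2, the enteric smooth muscle actin, was at 13.1 ± 3.54 CPM in lean d5 and 1.73 ± 0.90 CPM in DIO d21, while Actc1, the cardiac actin that regenerating fibers also make, was highest on d5 in both diets (377 ± 361 CPM in lean and 432 ± 306 CPM in DIO).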
